A study of Mus musculus with 6 samples.

Results

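The TRIM and RNF ubiquitin ligases were examined in RNA sequencing of mouse germinal vesicle oocytes, with and without Lsd1. Members were the gene symbols of the count files made of Trim or Rnf followed by a number, which gave 143 of 23284 symbols, 66 Trim and 77 Rnf. The samples were 3 Lsd1 KO and 3 Control pools of 100 oocytes each, all of mixed C57BL/6-129 background, from females of 4 to 6 weeks taken 48 hours after 5 IU of a gonadotrophin that stimulates follicle growth. Lsd1, listed as Kdm1a, is a histone demethylase of the CoREST corepressor complex. The genotypes are called knockout and control below. The sources used here do not state how the gene was deleted, or whether the oocytes of a pool came from 1 or several females, and p-values measure the spread between these pools.

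Ubiquitin is passed from an activating enzyme (E1) to a conjugating enzyme (E2) and then to a substrate chosen by a ligase (E3). Most TRIM proteins carry a RING domain, 1 or 2 B-boxes and a coiled coil, followed by a C-terminal domain that often binds the target, and many act in antiviral and inflammatory signalling. RNF is a naming stem for proteins with a RING finger and not a family by descent, so its members range from chromatin enzymes to ligases of the endoplasmic reticulum. Oocytes store ubiquitin ligase transcripts for use in meiosis and in the early embryo, when much maternal protein is degraded.

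Total counts ran from 10735422 to 13035045 per library, and Kdm1a had 31 to 47 counts in the knockout libraries and 492 to 962 in the control libraries. All 15 oocyte markers were tested, and Zp1, Zp2 and Zp3 were at 719, 5481 and 3177 CPM (counts per 1e6 counts) in knockouts. The summed level of the 15 was 36702 to 39897 CPM in knockouts and 24050 to 28388 CPM in controls, where 3 of them rose and 1 fell. Their median log2 fold change was -0.13, with 6 positive and 9 negative, so the higher sum does not describe most of them. CPM were scaled by the trimmed mean of M values, and a level followed by ± shows the mean and SD of n = 3 pools. A log2 value compares knockout with control, and its ± is the SE. The adjusted p (Benjamini-Hochberg) is that of the quasi-likelihood test in edgeR, run on the 12935 genes left by the filter on low counts, and a gene is said to rise or fall when it was under 0.05. The pools carried transcripts of other cells: the summed level of 17 granulosa and cumulus markers was 703 to 789 CPM in knockouts and 357 to 436 CPM in controls, and that of 17 blood and immune markers 94.5 to 216 CPM and 53.9 to 106 CPM. Of the granulosa markers 15 were tested, of which 3 rose and 1 fell. Their log2 fold changes were positive for 13 and negative for 2, with a median of 1.305. Of the blood and immune markers 10 were tested, of which 1 rose, and the 4 haemoglobin genes were at 0 in every library. Of 8 theca and stroma markers 1 was tested and rose, and their summed level was 8.75 to 13.4 CPM in knockouts and 1.39 to 2.26 CPM in controls. In bulk pools, fewer cells of a type and less RNA per cell cannot be told apart. The part of these cells in the results below was not tested, and a marker sum set beside a gene is not such a test.

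The 250 bases upstream of the start sites that the results turn on are shown first, to set the neighbours of Trim6 beside it and to show a pair of genes that share a start. They come from RefSeq on GRCm38.p6, 5′ to 3′ on the strand of the gene, and 109 of the 143 members matched that table. Capitals mark the motifs searched on both strands: the core of the interferon response element (GAAA and GAAA parted by any 2 bases), the GC box (GGGCGG) and the TATA box (TATAAA). Over the 250 upstream bases of all 32851 promoters in the table, these were present in 2.98%, 32.7% and 12.4%. The first 4 belong to the Trim cluster on chromosome 7, and the last pair to the cluster on chromosome 8.
Trim6 (chr7:104218545-104218794, plus strand): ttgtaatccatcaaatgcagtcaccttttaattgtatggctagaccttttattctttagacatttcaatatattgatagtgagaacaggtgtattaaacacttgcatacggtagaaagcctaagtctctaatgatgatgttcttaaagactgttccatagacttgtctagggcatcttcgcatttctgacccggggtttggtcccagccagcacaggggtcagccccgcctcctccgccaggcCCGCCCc
Trim12c (chr7:104353350-104353599, minus strand): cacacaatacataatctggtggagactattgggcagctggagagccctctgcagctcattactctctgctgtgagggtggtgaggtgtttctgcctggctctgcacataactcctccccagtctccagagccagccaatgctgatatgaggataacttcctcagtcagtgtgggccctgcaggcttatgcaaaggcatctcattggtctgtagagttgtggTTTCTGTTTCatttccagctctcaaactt
Trim30a (chr7:104465194-104465443, minus strand): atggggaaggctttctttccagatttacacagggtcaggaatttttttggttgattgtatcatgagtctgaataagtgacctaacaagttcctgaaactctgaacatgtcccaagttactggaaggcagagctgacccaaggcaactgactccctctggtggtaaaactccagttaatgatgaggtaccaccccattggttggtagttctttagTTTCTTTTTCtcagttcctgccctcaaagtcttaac
Trim30d (chr7:104507850-104508099, minus strand): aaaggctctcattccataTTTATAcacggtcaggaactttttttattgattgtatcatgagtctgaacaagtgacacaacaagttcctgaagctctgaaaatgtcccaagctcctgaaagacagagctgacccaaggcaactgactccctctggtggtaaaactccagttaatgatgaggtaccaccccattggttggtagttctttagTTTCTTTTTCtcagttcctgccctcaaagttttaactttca
Trim60 and Trim61 (chr8:65018689-65018938, minus strand): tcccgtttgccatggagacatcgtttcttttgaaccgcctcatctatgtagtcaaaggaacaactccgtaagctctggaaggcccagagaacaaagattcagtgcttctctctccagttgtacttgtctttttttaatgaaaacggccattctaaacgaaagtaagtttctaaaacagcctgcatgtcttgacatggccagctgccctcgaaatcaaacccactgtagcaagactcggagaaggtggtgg
Trim75 (chr8:64987645-64987894, minus strand): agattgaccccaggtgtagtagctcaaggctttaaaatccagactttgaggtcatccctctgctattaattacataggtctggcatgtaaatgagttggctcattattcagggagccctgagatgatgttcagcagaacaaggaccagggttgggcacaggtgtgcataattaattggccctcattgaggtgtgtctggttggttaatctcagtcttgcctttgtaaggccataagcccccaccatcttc

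The upstream bases of Trim30a and Trim30d were near-copies, with 92.7% identity over aligned bases and 10 gap bases, and both held the interferon response element core within the same stretch. Trim12c, whose level did not pass the test, held that core as well. Trim6 had none, and its window held a GC box at the 3′ end and 6 CpG dinucleotides, against 0 in Trim12c, 0 in Trim30a and 1 in Trim30d. Trim30a has another start in the table, at chr7:104446126-104446375, whose window held none of the motifs. RefSeq gives Trim60 and Trim61 the same start, so their upstream bases are identical, with 8 CpG dinucleotides. Trim75 had its own start with 0 CpG dinucleotides. A match describes these letters and is not a measured binding site.

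Among the members, 2 transcripts rose in knockout oocytes and 14 fell. Of 66 Trim genes 39 were tested, of which 1 rose (Trim6), 8 fell and 30 did not pass. Of 77 Rnf genes 64 were tested, of which 1 rose (Rnf135), 6 fell and 57 did not pass. Over all genes tested 11.0% rose and 10.3% fell, together 21.3%, beside which 2.56% of tested Trim members rose and 20.5% fell, and 1.56% of tested Rnf members rose and 9.38% fell. The median log2 fold change was -0.22 for Trim and -0.19 for Rnf members tested, and -0.01 for all genes tested. The CPM values of the genotypes did not overlap for 38 of the 103 members, or 36.9%, where 38.7% of all genes tested had no overlap.

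**Figure D1:**
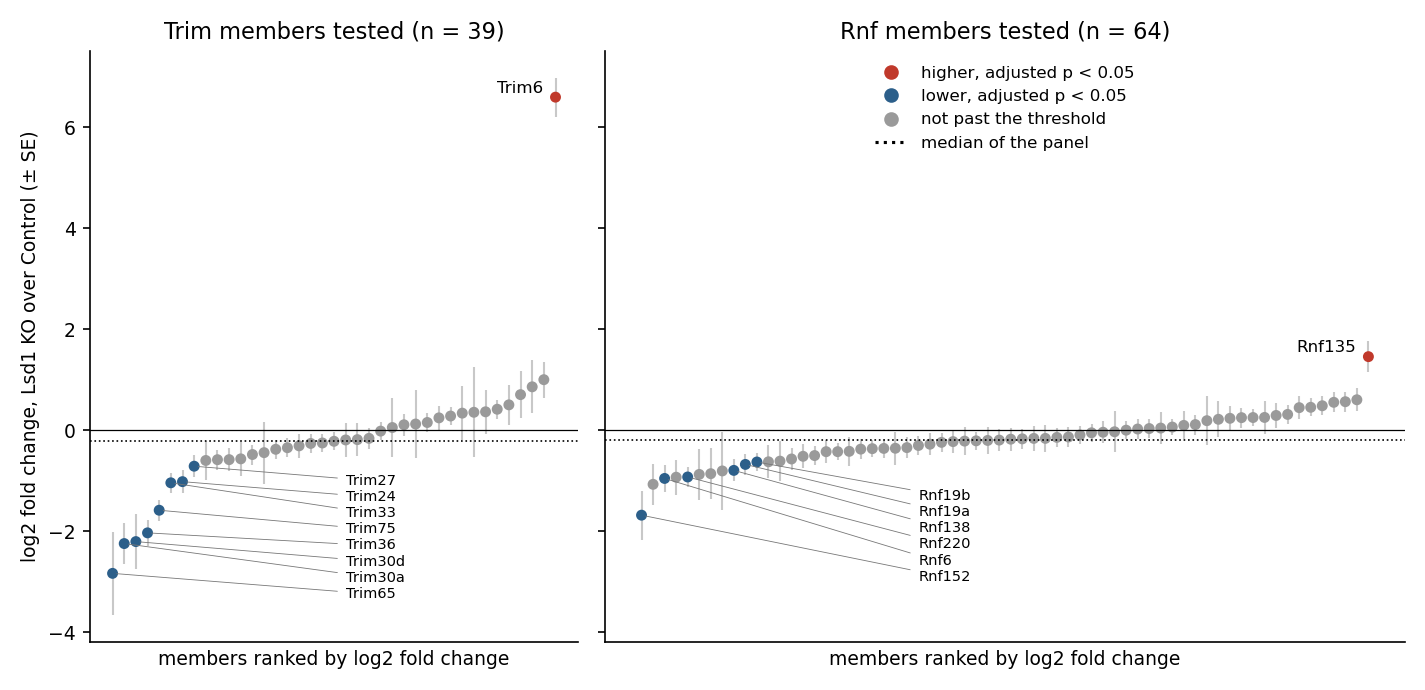
Log2 fold change of each tested Trim member (left) and Rnf member (right), knockout over control, ranked, with bars of ± SE from the edgeR fit over 3 libraries per genotype. Trim6 stands at 6.60, the next highest member is Rnf135 at 1.46, and the 14 members that fell lie between -2.83 and -0.63.

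The count for Rnf was the less stable of the stems. Rnf members called lower numbered 2, 4 and 1 without knockout pools 1, 2 and 3, and 3 without control pool 1 or 2, against 6 in all libraries. Part of this loss was shared by all genes. Genes called lower numbered 638 and 727 without knockout pools 1 and 3, and 781 without control pool 2, against 1329 in all libraries. With scaling to library totals, 2 Rnf members were higher and 6 lower. Trim members called lower numbered 6 to 8 in these fits. Among called members, Trim6, Trim30a, Trim33, Trim36, Trim75, Rnf135 and Rnf220 passed with each single library left out.

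Trim6 encodes a tripartite-motif ligase known for making unanchored ubiquitin chains in interferon signalling. Its counts were 843, 1348 and 867 in knockout pools 1 to 3 and 4, 12 and 16 in control pools 1 to 3. On the CPM scale these were 67.6, 122 and 77.8 against 0.370, 0.904 and 1.45. The lowest knockout library was far above the highest control library. The log2 fold change was 6.60 ± 0.39 (adjusted p = 3.02e-06 by edgeR), or 96.7-fold, and it was the fifth largest of the genes tested. Scaled to exon length, Trim6 went from 0.185 CPM per kb of exon in controls to 18.2 in knockouts. In knockouts it was the tenth highest of the 39 tested Trim members. Because Trim6 passed the count filter through its knockout libraries, its place among tested members in controls is not read. It shared no 50-base stretch with the coding transcripts of any other gene. Knockout pool 2, with the highest Trim6 level, had the lowest blood and immune marker sum of its group (94.5 CPM, beside 216 and 169 in pools 1 and 3) and the highest granulosa and cumulus sum (789 CPM, beside 703 and 725). The part of either cell type in the Trim6 level was not tested. The rise was 6.23 to 7.04 on the log2 scale when each library was left out in turn.

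In coordinates of mm9, the build named in the submitters' processing notes, Trim6 lies on chromosome 7 from 111367307 to 111383666 on the plus strand. The files hold 102 genes that the annotation places within 1 Mb of it, of which 9 are Trim genes, 79 are olfactory receptors and 14 are others. Only 7 of these passed the filter, and 64 had no count in any library. Among the 4 tested Trim genes of the window, Trim6 rose, Trim30a and Trim30d fell, and Trim12c did not pass.

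Trim34a is the nearest Trim gene to Trim6, starting 9.31 kb beyond its end on the same strand. It had 12, 0 and 12 counts in knockouts and none in controls, and it was not tested in the fit with the count filter. Without that filter it passed (edgeR), as did Trim29, a member elsewhere in the genome whose counts were 4, 0 and 132 in knockouts and 0, 0 and 1 in controls. Trim34b, which shares 72.3% of its 50-base stretches with Trim34a, had no count in any library, and reads from the pair cannot be assigned with certainty.

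Trim12c, a relative of the retroviral restriction factor Trim5, lies 104 kb beyond Trim6 on the opposite strand. Its levels were 9.30, 7.31 and 12.1 CPM in knockouts and 10.1, 15.0 and 7.68 CPM in controls. The libraries of the genotypes overlapped, and the log2 fold change was -0.19 ± 0.33 (adjusted p = 0.716 by edgeR). Trim12c shares 24% of its 50-base stretches with Trim5, a symbol not analysed here. Trim12a had 8, 0 and 0 counts in knockouts and 3, 6 and 4 in controls, too few to test.

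Trim30a restrains Toll-like receptor signalling and is best known from blood cells. Its counts were 56, 105 and 34 in knockouts and 382, 372 and 190 in controls, and its levels were 4.49, 9.47 and 3.05 CPM against 35.3, 28.0 and 17.2 CPM. Every knockout library was below every control library. Trim30a fell by 2.24 on the log2 scale (SE 0.40, adjusted p = 0.00270 by edgeR). The summed blood and immune marker level was higher in knockouts, at 160 ± 61.1 CPM against 80.8 ± 25.9 CPM. The part of these cells in the Trim30a level was not tested. Trim30d, the neighbour of Trim30a, went from 6.47, 3.47 and 2.80 CPM in controls to 1.28, 0.812 and 0.628 CPM in knockouts. That was a fall of 2.20 on the log2 scale (SE 0.55, adjusted p = 0.0143 by edgeR). Trim30d lost the call without knockout pool 3 or control pool 1, with adjusted p up to 0.0948. Trim30d shares 6.39% of its 50-base stretches with Trim30a. Trim30b and Trim30e-ps1 had at most 6 counts in a library.

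The other tested genes of the window were Olfr613, Dub1 and Olfr667, named here after their values were seen. Olfr667 fell from 3.09 ± 1.63 to 0.750 ± 0.404 CPM (adjusted p = 0.0431 by edgeR), and Olfr613 and Dub1 did not pass. Trim21, Trim68 and Trim3 lie on the same chromosome outside the window. Trim68 was at 25.8 ± 6.17 CPM in knockouts and 21.7 ± 3.19 CPM in controls and Trim3 at 5.56 ± 0.749 and 8.24 ± 2.11 CPM, and neither passed. Trim21, a cytosolic antibody receptor, had 8, 0 and 8 counts in knockouts and 2, 0 and 0 in controls.

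**Figure D2:**
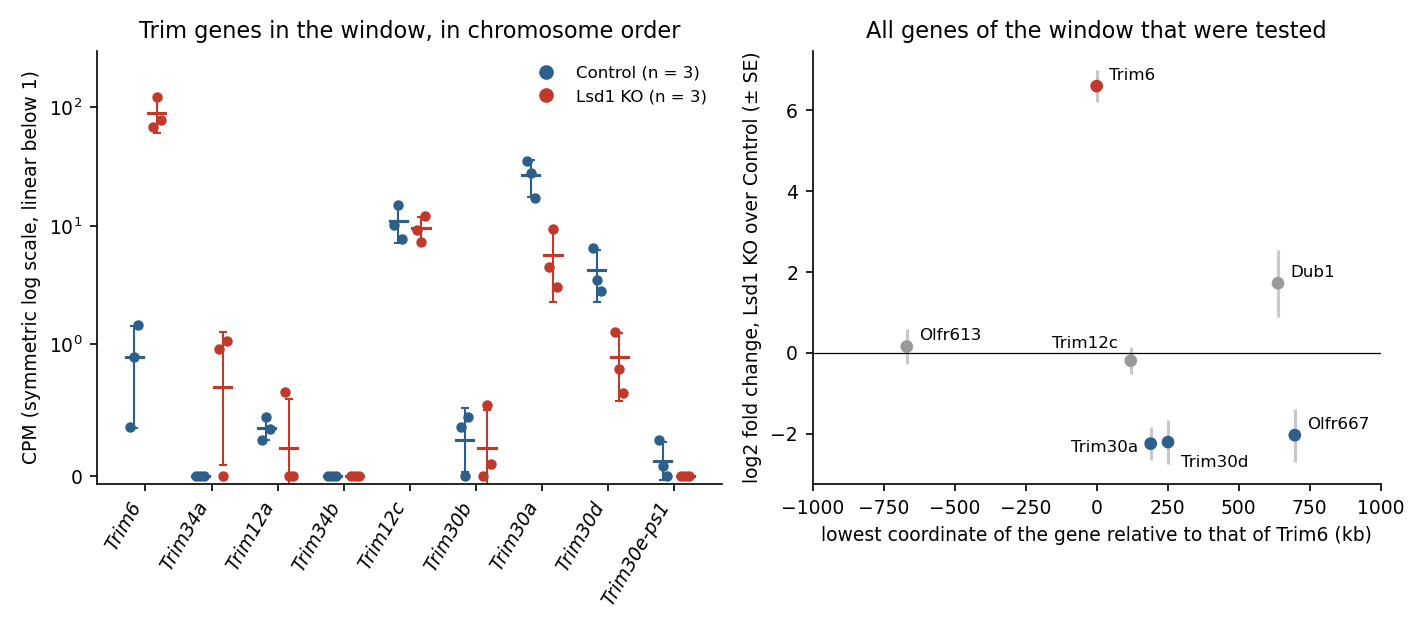
Left, CPM of the 9 Trim genes within 1 Mb of Trim6 in each of the 6 libraries (points), with mean (line) and SD (bar), in chromosome order on a symmetric log scale. Right, log2 fold change ± SE of the 7 tested genes of the window against distance from Trim6: Trim6 is at 6.60, while Trim30a and Trim30d are at -2.24 and -2.20 and Trim12c is at -0.19.

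The most abundant Trim transcripts of these oocytes came from a cluster on chromosome 8 that holds Trim60, Trim61 and Trim75. The summed Trim level was 3200 ± 287 CPM in knockouts and 4552 ± 459 CPM in controls, and its ranges of 2932 to 3503 and 4135 to 5044 CPM did not overlap. Together the 3 genes gave 52.3% of the summed Trim CPM in controls and 48.3% in knockouts. In mm9 coordinates Trim75 spans 67505550 to 67511545, Trim60 67522356 to 67542587 and Trim61 67536875 to 67542587, all on the minus strand, so that Trim61 lies within Trim60. Trim60 and Trim61 share 231 exonic bases, which counting by gene may leave unassigned.

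Trim75 fell about 3-fold. Its levels were 214, 294 and 192 CPM in knockouts and 606, 685 and 807 CPM in controls, with no overlap. The log2 fold change was -1.58 ± 0.21 (adjusted p = 4.07e-04 by edgeR). Trim61 was at 669 ± 124 CPM in knockouts and 933 ± 152 CPM in controls, with no overlap between the genotypes and a log2 fold change of -0.48 ± 0.20 that did not pass (adjusted p = 0.104 by edgeR). Trim60 was at 642 ± 29.2 and 747 ± 119 CPM, and its libraries overlapped (log2 fold change -0.22 ± 0.18, adjusted p = 0.407 by edgeR). Whether Trim75 changed more than its neighbours was not tested. Trim61 passed when transcript length and GC content were corrected for, at -0.64 (adjusted p = 0.0407 by edgeR).

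Scaled to exon length, the order of these levels in controls was Trim61 at 433 CPM per kb, Trim75 at 279 and Trim60 at 206. In knockouts it was Trim61 at 310 CPM per kb, Trim60 at 177 and Trim75 at 93.1. The control ranges were 366 to 507 CPM per kb for Trim61, 242 to 322 for Trim75 and 173 to 238 for Trim60, and these did not overlap. In knockouts the ranges were 246 to 356, 76.7 to 117 and 168 to 184 CPM per kb, also without overlap. These ranges show the spread between pools. Error from the exon lengths or from unassigned bases is alike in every pool and is not measured by them. By unscaled CPM, Trim24, Trim27 and Trim28 came next, and scaled to exon length they were at 49.1, 53.8 and 56.1 CPM per kb in controls and 24.3, 32.9 and 44.2 in knockouts. Trim13, named after its values were seen, was higher than these on the scaled measure, at 120.1 CPM per kb in controls and 92.5 in knockouts. Its knockout level was close to that of Trim75, at 93.1.

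**Figure D3:**
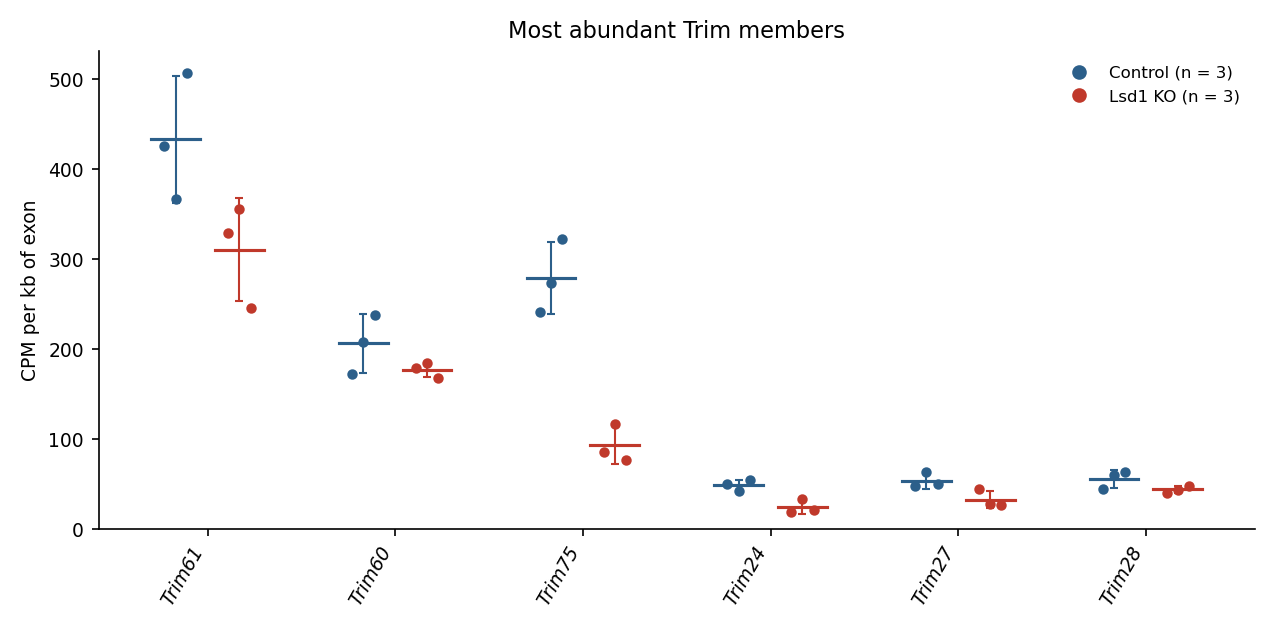
CPM per kb of exon in each library (points), with mean (line) and SD (bar) per genotype, n = 3, for the 6 most abundant Trim members by mean CPM. Trim61, Trim60 and Trim75 stand above the others plotted, and Trim75 goes from 279 in controls to 93.1 in knockouts. Trim13, which is not among these 6, is not shown.

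The Trim members of the TIF1 class are nuclear proteins with a bromodomain that work as transcription cofactors. Of its 4 tested genes, 2 fell and none rose, where 10.3% of all genes tested fell and 11.0% rose. A class of 4 is too small to read against these shares. Trim33, which also acts in TGF-beta signalling through SMAD4, was at 94.4, 102 and 119 CPM in knockouts and 173, 273 and 203 CPM in controls (log2 -1.04 ± 0.20, adjusted p = 0.00388 by edgeR). Trim24, a cofactor of nuclear receptors, was at 161, 284 and 177 CPM against 428, 366 and 464 CPM (log2 -1.02 ± 0.22, adjusted p = 0.00766 by edgeR). Neither gene had a knockout library inside the control range. Trim24 lost the call without knockout pool 1, with adjusted p = 0.0507. Trim28, the corepressor recruited by KRAB zinc-finger proteins, was at 179 ± 15.99 and 227 ± 40.2 CPM and did not pass (log2 -0.35 ± 0.18, adjusted p = 0.200 by edgeR). Trim66 was at 2.20 and 2.11 CPM.

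Among the other Trim members that fell, Trim36 had the clearest difference. This microtubule-binding ligase of the COS-box class went from 51.6, 63.0 and 68.1 CPM in controls to 12.7, 21.3 and 10.8 CPM in knockouts (log2 -2.03 ± 0.26, adjusted p = 3.47e-04 by edgeR). Every knockout library was far below every control library. Of its class Trim67 was tested and did not pass (log2 0.86 ± 0.52), and Trim9 and Trim46 had at most 9 counts in a library. Mid1, the class member mutated in Opitz syndrome whose symbol lies outside the stem, fell as well, from 88.0 ± 33.2 to 39.2 ± 20.1 CPM (log2 -1.17 ± 0.37, adjusted p = 0.0424 by edgeR), and is named after its values were seen.

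Trim27, a ligase first found as a fusion partner of the RET kinase, fell from 253 ± 41.2 to 154 ± 45.5 CPM (log2 -0.71 ± 0.22, adjusted p = 0.0361 by edgeR). It kept the call in 3 of 6 fits that left out a library, with adjusted p up to 0.154 and the call lost without knockout pool 2 or 3 or control pool 2. Of the 7 tested members of the major histocompatibility region and its relatives, the other 6 did not pass. With 7 tested, this count is too small to read beside the 21.3% of all genes tested that passed. Trim31 of the same group was at 9.58 ± 2.18 CPM in knockouts and 4.78 ± 1.61 CPM in controls (log2 1.00 ± 0.36, adjusted p = 0.0630 by edgeR), and passed with DESeq2. Trim31 lies on chromosome 17 and Trim27 on chromosome 13. Trim65, which acts on the RNA sensor MDA5, had 0, 4 and 9 counts in knockouts and 36, 37 and 25 in controls (log2 -2.83 ± 0.83, adjusted p = 0.0286 by edgeR). That call was kept in 2 of 6 fits, lost without knockout pool 1 or 2 or control pool 1 or 2 (adjusted p up to 0.102), and Trim65 shares 225 exonic bases with Trim47.

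No member of the NHL-repeat class passed among 3 tested, too few to read beside the 21.3% of all genes tested that passed. Trim71, the Lin41 protein of stem cells, was at 75.3 ± 3.41 and 69.8 ± 22.6 CPM, Trim32 at 23.7 ± 4.70 and 35.4 ± 6.28 CPM (log2 -0.58 ± 0.22, adjusted p = 0.0808 by edgeR). The 4 muscle ligases Trim54, Trim55, Trim63 and Trim72 were too low to test, with Trim63 at up to 26 counts in a library. Of the 27 Trim members that were not tested, 7 had no count in any library.

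**Figure D4:**
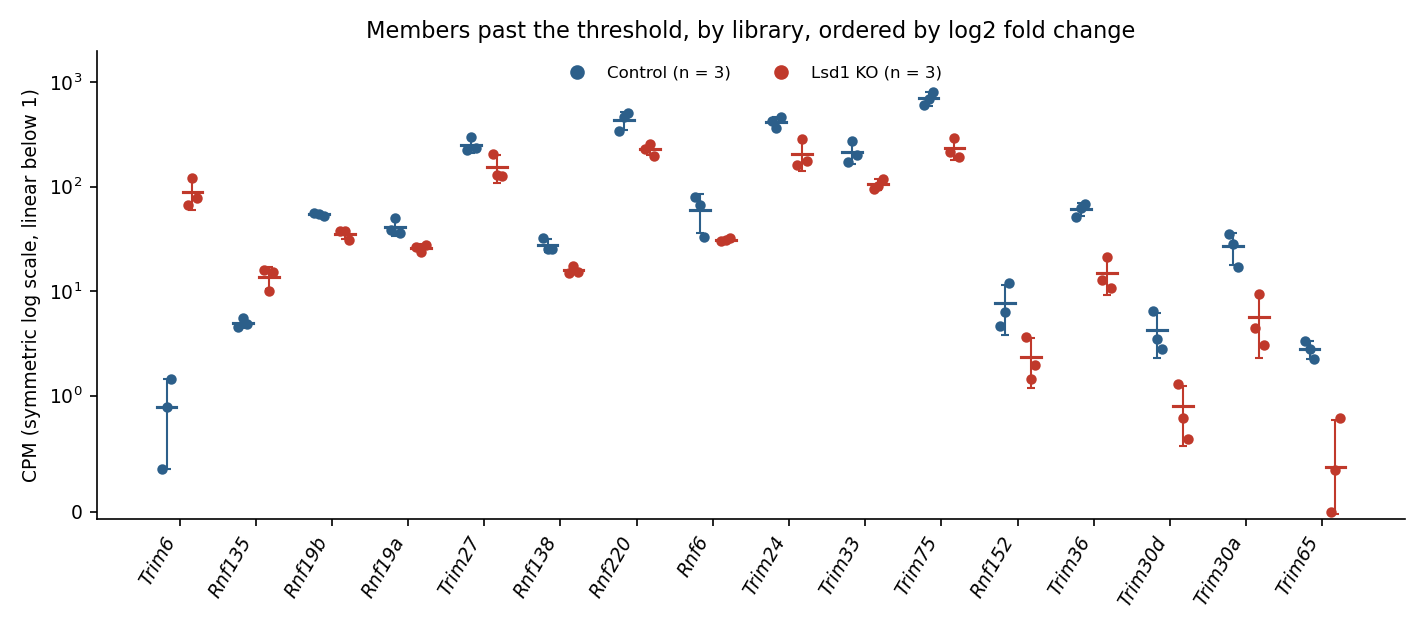
CPM of the 16 members past the threshold in each library (points), with mean (line) and SD (bar) per genotype, n = 3, on a symmetric log scale that is linear below 1 CPM. Trim6 and Rnf135 are higher in knockouts and the other 14 lower. The libraries of the genotypes do not overlap for any of the 16. These members were chosen by the test on the same libraries, so the lack of overlap is not separate support.

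Rnf135, also called Riplet, places ubiquitin on the RNA sensor RIG-I and activates it. It was at 15.9, 10.01 and 15.4 CPM in knockouts and 4.53, 5.57 and 4.88 CPM in controls, with no overlap, and rose by 1.46 on the log2 scale (SE 0.31, adjusted p = 0.00630 by edgeR). The blood and immune marker sum was 216, 94.5 and 169 CPM in the same pools, lowest like Rnf135 in knockout pool 2, and its part in this rise was not tested. The gene of RIG-I itself, listed as Ddx58, rose from 26.5 ± 1.34 to 47.6 ± 8.57 CPM (log2 0.85 ± 0.20, adjusted p = 0.0102 by edgeR). Named after their values were seen, Trim25, another ligase of RIG-I, was at 14.7 ± 10.5 and 11.6 ± 2.49 CPM and did not pass, and Rnf125, a ligase that limits RIG-I, was at 34.6 ± 3.27 and 23.6 ± 2.68 CPM (log2 0.55 ± 0.20, adjusted p = 0.0623 by edgeR). Rnf125 passed with scaling to library totals.

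Rnf220, a nuclear ligase that acts on the corepressor subunit Sin3b, fell from 339, 461 and 502 CPM in controls to 232, 256 and 198 CPM in knockouts (log2 -0.92 ± 0.19, adjusted p = 0.00620 by edgeR). All knockout libraries were below all control libraries. Rnf152, a lysosomal ligase that acts on mTORC1 signalling, was at 3.69, 1.44 and 1.98 CPM in knockouts and 4.62, 6.33 and 12.0 CPM in controls. Its fall of 1.68 on the log2 scale (SE 0.48, adjusted p = 0.0266 by edgeR) was kept in 3 of 6 fits with a library left out, and lost without knockout pool 2 or 3 or control pool 3.

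The other 4 falls among Rnf members were under 2-fold, like that of Rnf220, and depended on single libraries, like that of Rnf152. At a 2-fold minimum, 1 Rnf and 1 Trim member were higher and 1 Rnf and 7 Trim members lower, where 7.31% of all genes tested were higher and 4.83% lower. Rnf138, which acts in DNA end resection, went from 27.7 ± 4.15 to 15.9 ± 1.37 CPM (log2 -0.79 ± 0.22, adjusted p = 0.0218 by edgeR). It kept the call in 3 of 6 fits that left out a library. Rnf6 went from 80.1, 67.6 and 33.0 CPM in controls to 30.5, 30.7 and 32.1 CPM in knockouts (log2 -0.95 ± 0.27, adjusted p = 0.0267 by edgeR), so that control pool 3 was within 1 CPM of the highest knockout library. Its call was kept in 1 of 6 such fits, the one without control pool 3, and was lost with limma-voom. The RING-between-RING ligase Rnf19a fell from 41.4 ± 7.36 to 25.9 ± 2.17 CPM (log2 -0.68 ± 0.20), and its paralogue Rnf19b went from 54.6 ± 2.31 to 35.3 ± 3.84 CPM (log2 -0.63 ± 0.18), each kept in 2 of 6 fits, with edgeR adjusted p up to 0.145 and 0.133. For Rnf138, Rnf19a and Rnf19b alike the call was lost without knockout pool 1 and without knockout pool 3. It was also lost without control pool 1 for Rnf138, without knockout pool 2 or control pool 2 for Rnf19a, and without control pool 1 or 2 for Rnf19b.

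Rnf114, a maternal ligase of the oocyte and early embryo, was at 751, 703 and 642 CPM in knockouts and 486, 569 and 361 CPM in controls (log2 0.57 ± 0.19, adjusted p = 0.0563 by edgeR), with no overlap and no call. It passed with DESeq2, with limma-voom, with the filter at 10 CPM and without control pool 2. Rnf4, which targets SUMO-modified proteins, was at 321 ± 26.3 and 430 ± 20.1 CPM (log2 -0.42 ± 0.16, adjusted p = 0.0834 by edgeR). Rnf168, which marks histone H2A at DNA breaks, was at 287 ± 71.8 and 339 ± 14.9 CPM, and Rnf185, a ligase of the endoplasmic reticulum, at 276 ± 33.9 and 270.0 ± 61.2 CPM; both overlapped.

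By role, the RING-between-RING group held 2 of the Rnf falls among 7 tested, Rnf19a and Rnf19b, or 28.6%. Over all genes tested 10.3% fell, and 21.3% passed in either direction. The groups are too small to read such counts, or a count of 0, against these shares. None of 8 tested members of the histone and DNA damage group passed, which holds Rnf2 of Polycomb complex 1 (log2 -0.36 ± 0.19) and the H2B ligases Rnf20 (-0.17 ± 0.20) and Rnf40 (0.49 ± 0.19), nor did any of 8 of the endoplasmic reticulum. None of 5 tested membrane ligases with a protease-associated domain passed, and Rnf43, the WNT receptor ligase of that group, was at 3.14 ± 2.14 and 5.75 ± 1.55 CPM. Znrf3, its partner under another name, fell from 42.7 ± 11.2 to 17.7 ± 5.44 CPM (log2 -1.27 ± 0.27, adjusted p = 0.00671 by edgeR), named after its values were seen. The germ-cell tudor protein Rnf17 was at 125 ± 7.76 and 161 ± 10.3 CPM, with no overlap, and did not pass (adjusted p = 0.129 by edgeR). In the Rnf114 group 1 of 4 fell, Rnf138, while Rnf114, Rnf125 and Rnf166 had log2 fold changes of 0.57, 0.55 and 0.29.

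Of 40 tested E1 and E2 genes, the upstream enzymes of the pathway, 1 rose and 7 fell, or 2.5% and 17.5%, where 11.0% of all genes tested rose and 10.3% fell. Their median log2 fold change was -0.05, with 18 positive and 22 negative, and that of all genes was -0.01. Ube2u, an E2 gene, rose from 7.50 ± 2.73 to 23.8 ± 2.08 CPM (log2 1.67 ± 0.29, adjusted p = 0.00219 by edgeR). The E2 genes Ube2r2 (log2 -1.01 ± 0.20), Ube2q1 (-0.90 ± 0.21) and Ube2q2 (-0.80 ± 0.20) fell. The number lower was 1, 4 and 4 without knockout pool 1, knockout pool 3 and control pool 2.

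Of 71 tested RING ligases under other names 8 rose and 9 fell, or 11.3% and 12.7%. Over all genes tested the shares were near these, at 11.0% and 10.3%. The median log2 fold change of the list was 0.07. Dtx3l, the partner of the ADP-ribosyltransferase Parp9, rose from 8.53 ± 0.507 to 25.8 ± 3.34 CPM (log2 1.59 ± 0.24, adjusted p = 9.39e-04 by edgeR), and the membrane ligase March8 rose (1.49 ± 0.25). The paralogues Siah1b and Siah1a moved in opposite directions, Siah1b from 141 ± 15.1 to 293 ± 21.8 CPM and Siah1a from 284 ± 52.3 to 138 ± 10.6 CPM, with log2 fold changes of 1.06 ± 0.17 and -1.04 ± 0.18. Shared stretches of sequence were searched for Trim and Rnf members only. Whether reads of this pair were assigned to the right gene was therefore not tested, and the changes cannot be taken as separate. Pml, a TRIM protein by structure that forms nuclear bodies, rose from 8.57 ± 3.23 to 20.2 ± 3.65 CPM (log2 1.23 ± 0.30, adjusted p = 0.0135 by edgeR) and is named after its values were seen. The number lower was 3 without knockout pool 1 or 3, 5 without control pool 2 and 6 without control pool 1 or 3.

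Because many TRIM genes are induced by interferon, a list of interferon-stimulated genes was read beside them. Of 45 in the files 22 were tested, of which 6 rose and 2 fell, or 27.3% and 9.09%, where 11.0% and 10.3% of all genes tested did. The median log2 fold change of the list was 0.32. The blood and immune markers moved with it: all 10 tested had positive log2 fold changes, with a median of 1.70, although 1 passed, and their part in the interferon list was not tested. Bst2, which tethers virus particles, rose from 2.48 ± 0.0962 to 13.9 ± 1.8 CPM (log2 2.48 ± 0.31, adjusted p = 3.19e-04 by edgeR), and Oas1d, an oligoadenylate synthetase relative of the oocyte, from 684 ± 73.8 to 1208 ± 272 CPM (0.82 ± 0.20). Xaf1 fell from 26.8 ± 10.4 to 10.02 ± 1.75 CPM (log2 -1.42 ± 0.31, adjusted p = 0.00730 by edgeR). The number of rises was 3 without control pool 1 or 2, and 4 without knockout pool 1 or 3, and the falls numbered 1 without each of these 4.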

How the data were processed

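RNA of 3 Lsd1 KO and 3 Control pools was amplified (Nugen Ovation) and sequenced as paired ends, per the labels' protocols. The deposited files hold raw read counts per gene symbol; CASAVA 1.8.2, TopHat2 2.0.7, HTSeq 0.5.3p9 and mm9 are named in the submitters' processing notes, and the sources used here do not state the annotation or strand setting. Counts were tested with edgeR 4.0.16 in R 4.3.3 (filterByExpr, minimum count 10, TMM scaling, two-sided quasi-likelihood F test, Benjamini-Hochberg threshold 0.05), after the steps were tested on simulated data. SEs were derived from the test statistic. Positions, exon lengths and shared 50-base stretches came from GENCODE M1 on mm9.

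Named genes are Kdm1a, members past the threshold, the 6 most abundant of each stem, the Trim genes within 1 Mb of Trim6 and up to 4 called genes per list with the smallest p. Any other gene was named after its values were seen. The values of 1 member are not reported here. Members and lists were chosen with earlier results of these data known. Alternatives were DESeq2 1.42.0 (test or size factors), limma-voom (3.58.1), library totals, other filters and thresholds, each library left out, a replicate block, and a length and GC correction chosen after seeing the data. Same-numbered libraries had correlations of deviations of -0.029, 0.111 and -0.021, so the numbers were not taken to pair them.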

Additional observations from a re-analysis of the deposited data

How the results depend on the processing

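No single-gene value followed here changed sign where it passed in the main fit or in the alternative. Changes of sign among values that passed in neither were not counted. The balance of calls did change. Without knockout pool 1, 7 RING ligases under other names were higher and 3 lower, and 1 E1 or E2 enzyme was called each way. Without knockout pool 3, 7 of the RING ligases were higher and 3 lower, and 1 Rnf member was called each way. With all libraries, genes called higher and lower numbered 1421 and 1329; at an adjusted p of 0.01 they were 676 and 497, and with a 2-fold minimum 945 and 625. Trim members called higher were 2 with DESeq2 and 3 with no filter, and those called lower were 5 at 0.01. Rnf members called higher were 2 with library totals, limma-voom or the length and GC correction, 3 with DESeq2 and 5 with the filter at 10 CPM, and those called lower were 1 at 0.01 and 1 with the 2-fold minimum. At 0.01 and with the 2-fold minimum, E1 and E2 enzymes called lower were 1 and 1, RING ligases under other names called higher 4 and 5 and lower 3 and 3, and interferon-stimulated genes called higher 1 and 3 and lower 1 and 1. The stricter thresholds call fewer genes by construction; the cause of the other moves was not tested. With each library left out, genes called higher ranged from 932 to 1466 and lower from 638 to 1346 (638, 727 and 781 without knockout pools 1 and 3 and control pool 2). In the same fits Trim members ranged from 1 to 3 higher and 6 to 8 lower, Rnf members from 1 to 2 and 1 to 7, E1 and E2 enzymes from 1 to 2 and 1 to 7, RING ligases from 6 to 8 and 3 to 8, and interferon-stimulated genes from 3 to 6 and 1 to 2. Kdm1a ranged from -4.49 to -4.16 and Trim6 from 6.23 to 7.04 on the log2 scale. With a replicate block, which the numbering does not support as a pairing, 1270 genes were higher and 1098 lower, Trim members 1 and 8, Rnf members 1 and 5 (Rnf19a lost), E1 and E2 enzymes 1 and 6, RING ligases 7 and 7, and interferon-stimulated genes 5 and 2. The filter at 10 CPM left Trim30d, Trim65, Rnf152 and Rnf135 untested.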
